A study of Mus musculus with 4 samples.

Results

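Cyb561, Fam189a1, Lrrc10b, Kbtbd11 and Ephb1 are the 5 genes, of 7899 tested and 24421 in the count table, with the lowest fitted log2 fold change of counts in ADAR1-deleted endothelial cells (ECs). They were selected on that contrast, so the falls in their counts are given as a description with no test. Read depth at single positions of the same RNA libraries was then set beside the counts, gene by gene and mouse by mouse. Exonic depth could be compared in both mice for 1 of the 5, Ephb1, where it was lower in the ADAR1-deleted cells of both, as it was in 37.2% of all 6836 genes with such a comparison. The other 4 had too few positions for a ratio in both mice.

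The libraries came from lung ECs of 2 male C57/BL6 mice aged 2 weeks, named EC1 and EC2, from independent litters and carrying an inducible ADAR1 knockout. The sample labels call the model EC-specific, the study's methods only inducible, and the driver of the Cre is not given in the sources used here. The cells of each mouse were sorted with CD31 beads and, after culture, with ICAM-2 beads. Tamoxifen (TM) was added to 1 culture of each mouse to delete exons 12 to 15 of the ADAR1 gene, and an untreated culture of the same mouse (CON) carried the same alleles. This gave 2 CON and 2 TM libraries paired by mouse, and the drug and the deletion cannot be told apart with them. Over all rows, the count tables summed to 133078922 in CON and 131796753 in TM of EC1, and to 143534442 in CON and 207323870 in TM of EC2. Counts on genes made up 1095488, 1096152, 1222301 and 1778732 of them. As a share of all rows that was 0.823% to 0.858%, while 92.8% to 93.9% was assigned to no gene. As a counting limit, a count of 0 still allows 3 counts, or 1.69 to 2.74 counts per 1000000 counts on genes (CPM). This limit does not cover reads over a gene that were assigned to no gene. The second readout, a table of 1205261 positions with altered bases, gives the number of reads over a position in each library that lists it. Where a library does not list a position, its depth there is unknown.

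ADAR1 is an RNA-editing enzyme that turns adenosine into inosine in double-stranded RNA and thereby keeps cellular RNA from being sensed as foreign. Ephb1 is a receptor tyrosine kinase of the Eph family, whose ligands, the ephrins, sit on neighbouring cells. In blood vessels the best known pair is Ephb4, on veins, with ephrin B2 (Efnb2), on arteries. Cyb561 is a membrane cytochrome of secretory vesicles that passes electrons from ascorbate across the membrane. Kbtbd11 belongs to the BTB-kelch proteins, many of which bring substrates to ubiquitin ligases built on Cul3. Lrrc10b is a leucine-rich repeat protein related to Lrrc10 of heart muscle, and Fam189a1 is a membrane protein of little known function.

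Adar itself had 9 counts in CON and 47 in TM of EC1, and 16 in CON and 71 in TM of EC2. In exons 12 to 14, the scaled depth (reads per 100000000 of the table total) was 118 in EC2 CON, at 1 position, and 31.6 in EC2 TM, at 2 positions. EC1 CON had 109 there, at 3 positions, and EC1 TM listed no position. In exons 1 to 11 the scaled depth was 115 and 123 in the CON libraries and 504 and 483 in the TM libraries, so the deleted exons and the rest of the gene moved in opposite directions in EC2. The cells carried endothelial markers, with 491, 454, 442 and 869 counts for Cdh5 (VE-cadherin) given as CON and TM of EC1 and then CON and TM of EC2, an order kept for all lists of 4 values. Ptprc, the pan-leukocyte marker CD45, had 1, 1, 0 and 0 counts, and Cd3e of T cells had 0 counts in every library. Other leukocyte markers had counts, with 35, 23, 29 and 31 for Cd79a of B cells and 19, 17, 10 and 39 for Cd68 of macrophages. Cd79a listed 0, 0, 0 and 1 exonic positions, too few for a median or ratio of depth beside its counts, and Cd68 listed 2, 2, 0 and 4. Lyz2 of myeloid cells had 0 counts in every library but a median of 41 reads at 3 exonic positions in EC2 CON, so that its counts do not show that it was absent.

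The sequences of Ephb1 are shown first because it is the gene in which both readouts were lower in TM in both mice. The gene lies on the minus strand of chromosome 9, at chr9:101922128-102354693 in mm10, and spans 432566 bases with 7002 exonic bases. Of its exonic positions, 2 were listed in all 4 libraries, in exons 16 and 7 of the 16 exons of transcript Ephb1-201, and both lie in the coding sequence. They are printed on the strand of the transcript with 20 bases on each side, taken from GENCODE vM21, and the capital marks the altered position.
Ephb1 exon 16, chr9:101923508-101923548: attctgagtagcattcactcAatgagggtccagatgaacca
Ephb1 exon 7, chr9:102001797-102001837: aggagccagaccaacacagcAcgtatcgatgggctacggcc

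At the exon 16 position the depth was 45 reads in CON and 7 in TM of EC1, and 60 in CON and 4 in TM of EC2. The exon 7 position had 26, 8, 42 and 2 reads. Both TM libraries were below both CON libraries at both positions. All 116 reads at the first and all 78 at the second carried the altered base, in all 4 libraries, so the share of altered reads did not differ between CON and TM there.

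By counts, Ephb1 had 10 in CON and 2 in TM of EC1, and 19 in CON and 0 in TM of EC2. The groups did not overlap in CPM, which the choice of the 5 genes favours and which held for 23.9% of all 7899 genes tested. The fitted log2 fold change of TM over CON was -4.01 (standard error 0.95, n = 2 per group). In EC1 the ratio of TM to CON was 0.203 with a counting interval of 0.0217 to 0.954 (95%, exact, counting error only). EC2 was 10.2-fold lower with the TM library set at 3 counts, which leaves out the counting error of CON. The counting interval of its ratio, which takes that in, reached from 0 to 0.134. Without EC1 TM the fitted value was -7.13, with TM at 0, and without EC2 TM it was -2.80. Ephb1 is the member with the widest standard error apart from Lrrc10b.

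Exonic depth of Ephb1 was lower in TM in both mice, as the counts were. Over the exonic positions that each library lists, 4, 3, 9 and 4 in number, the median depth was 38.5, 8, 60 and 3.5 reads. Every listed exonic position had at least 26 reads in the CON libraries and at most 9 in the TM libraries. Scaled, the medians were 28.9, 6.07, 41.8 and 1.69, which is 4.77-fold lower in TM in EC1 and 24.8-fold lower in EC2. At the 2 positions listed by all libraries alone, an alternative added after seeing the data, the median log2 ratio was -2.18 in EC1 and -4.68 in EC2. Of 6836 genes with an exonic ratio in both mice, 2.72% were at least 2-fold lower in both, and Ephb1 had the lowest mean log2 ratio, -3.44 (SD 1.68 over the 2 mice). Since depth and counts come from the same libraries, this is not a second experiment.

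**Figure D1:**
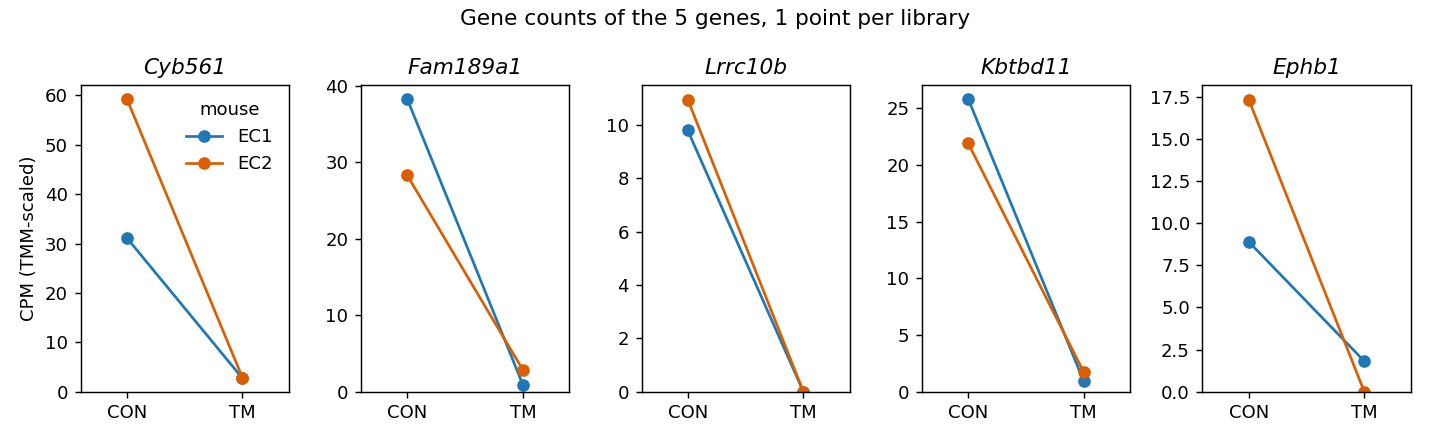
Counts of the 5 genes as CPM after TMM scaling (vertical axis, linear, from 0) in CON and TM, 1 point per library, with lines joining the libraries of a mouse. All TM points lie below all CON points in each gene, as in 23.9% of all genes tested and as the choice of the genes favours, with Lrrc10b at 0 in both TM libraries.

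In the introns of Ephb1, the CON libraries listed more positions than the TM libraries. EC1 listed 152 in CON and 24 in TM, and EC2 listed 89 in CON and 18 in TM. In EC1, 138 of them were in CON only, 10 in TM only and 14 in both, and in EC2 these numbers were 78, 7 and 11. Per listed intronic position of the library, the number was 5.46-fold lower in TM in EC1 and 5.69-fold lower in EC2. Of 5539 genes with at least 3 such positions in every library, 1.48% were at least 2-fold lower in both mice by this measure.

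Depth at the intronic positions that were listed was close to 1 read. Medians were 2, 1, 1 and 1 reads. Scaled, this is 1.98-fold lower in TM in EC1 and 1.44-fold lower in EC2. By mean depth in place of the median it was 2.06-fold and 2.00-fold lower. The EC2 median value comes from scaling alone, as both raw medians were 1 read, and 33.1% of 5539 genes were lower in both mice in intronic depth. A depth of 3 or more was reached at 45 positions in EC1 CON and 11 in EC2 CON, and at 0 in either TM library. A listed position has at least 1 read, so the median cannot show a fall below that. The depth was 1 read at 60, 23, 52 and 15 of the listed positions.

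At 169 intronic positions of Ephb1 at least 0.9 of the reads were altered in every library that listed them, as at the exonic positions printed above. Of this set, chosen after seeing the data, EC1 listed 128 in CON with 246 reads in all and 24 in TM with 25 reads, and EC2 listed 86 in CON with 137 reads and 17 in TM with 19 reads. Scaled, these sums were 185 in CON and 19.0 in TM of EC1, and 95.4 in CON and 9.16 in TM of EC2. Nearly every read at such a position carried the altered base wherever it was listed. An unlisted library therefore likely had few or no reads there, although its depth is not given. No ratio is formed, since the set was chosen after seeing the data. Most of the intronic positions lay far from the start of the gene. Of 3 equal parts of the gene in the direction of transcription, the part at the start held 8, 1, 5 and 0 listed positions, the middle 45, 12, 23 and 5, and the end 99, 11, 61 and 13. TM was below CON of the same mouse in each.

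**Figure D2:**
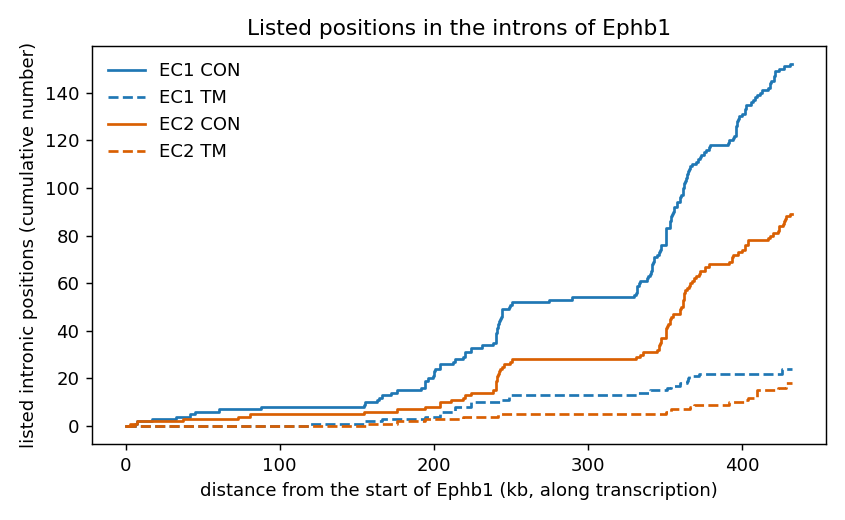
Cumulative number of listed intronic positions of Ephb1 (vertical axis) against the distance from the start of the gene in kb (horizontal axis), 1 line per library, with CON drawn solid and TM dashed. The CON lines end at 152 and 89 positions and the TM lines at 24 and 18, and both CON lines climb most in the last 100 kb of the gene.

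The start of Ephb1 is printed as sequence context, from the 3 of the 5 genes that RefSeq matched, and no readout used here bears on the promoter itself. The 250 bases before the RefSeq start (GRCm38.p6, minus strand, printed in the direction of transcription) contain the letters CCAAT at 2 places, both on the opposite strand, and the capitals mark them.
Ephb1 chr9:102354694-102354943: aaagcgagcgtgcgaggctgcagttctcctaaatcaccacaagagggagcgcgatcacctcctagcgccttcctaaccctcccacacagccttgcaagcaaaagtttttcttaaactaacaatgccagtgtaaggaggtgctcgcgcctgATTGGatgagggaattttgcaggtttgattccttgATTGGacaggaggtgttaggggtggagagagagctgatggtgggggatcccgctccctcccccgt

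CCAAT on either strand was found in 34.5% of 27025 promoters of this length. The other 7 motifs searched do not occur in the Ephb1 stretch on either strand. They were the TATA box (TATAAA, in 13.0% of all promoters), the GC box (GGGCGG, 32.9%), the E-box (CACGTG, 6.05%), the cAMP response element (TGACGTCA, 1.62%), the AP-1 site (TGANTCA, 6.87%), the ETS site (CCGGAAGT, 2.93%) and the core of the interferon-stimulated response element (GAAANNGAA, 7.16%). The same search over Fam189a1 found 1 GC box, and over Lrrc10b 4 GC boxes and 1 CCAAT. G and C made up 54.0% of the bases in Ephb1, 74.0% in Lrrc10b and 78.4% in Fam189a1, beside a median of 52.0% over all promoters. Letters found in a window are a description and say nothing of a factor binding there.

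Cyb561 lies on the minus strand at chr11:105933702-105953336 (mm10). It had 35 counts in CON and 3 in TM of EC1, and 65 in CON and 5 in TM of EC2. The groups did not overlap, with a fitted log2 fold change of -3.97 (standard error 0.56, n = 2 per group). In EC1 the ratio of TM to CON was 0.0872, with a counting interval of 0.0172 to 0.277, and EC2 was 20.8-fold lower.

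Depth over Cyb561 was not lower in step with these counts, on few positions. By gene name, EC1 CON listed no exonic position. EC1 TM had 66, 72 and 78 reads at its 3 exonic positions, EC2 CON had 93 reads at 1, and EC2 TM had 141, 121, 161 and 109 reads at 4. Scaled, the EC2 medians were 64.8 in CON and 63.2 in TM, 1.03-fold lower in TM on 1 position against 4. No position was shared between the libraries. The site table gives part of the gene to its neighbour Ace as 5′ distal, so positions were also assigned by their place in GENCODE vM21, with a minimum of 1 position per library in place of 3, an alternative added after seeing the data that changes both choices. The EC2 exonic medians were then 57 reads in CON and 98 in TM, on 2 and 9 positions, and the scaled log2 ratio was 0.25, in place of the slightly lower value by name. The intronic median was 8 reads in CON and 15 in TM of EC1, and 5 in CON and 12 in TM of EC2, on 2, 5, 3 and 7 positions. Scaled, the intronic log2 ratio was 0.92 in EC1 and 0.73 in EC2, both above 0.

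The counts of Cyb561 are small beside its depth. As a share of the pairs implied by depth, they were above the medians over genes in EC2 CON and below them in EC2 TM. From the median exonic depth and 3653 exonic bases, the paired reads imply 1682 pairs on the gene in CON of EC2 and 2369 in TM. The count was 3.86% of the first and 0.211% of the second. In genes with no exon on the opposite strand, the median in the same libraries was 0.215% over 5850 genes in CON and 0.291% over 6244 in TM, and the 95th percentiles were 3.86% and 4.85%. Genes with such an exon had medians of 0.490% and 0.624%. In the CON libraries of the other members the count was 59.0% of the implied pairs for Fam189a1 (EC2), 9.61% for Lrrc10b (EC1) and 6.18% for Kbtbd11 (EC2), from depths of 2 to 16 reads at 1 or 2 positions. It was 0.749% in EC1 and 0.914% in EC2 for Ephb1. Fam189a1 and Lrrc10b lie above the 95th percentile of genes with no exon on the opposite strand, which was 5.54% in EC1 CON. Kbtbd11, Ephb1 and Cyb561 share exonic bases with a gene on the opposite strand, a class for which only medians were taken. In CON they lie above these medians, 0.670% in EC1 and 0.490% in EC2. Cyb561 shares 377 exonic bases with Gm9910 on the opposite strand. HTSeq assigns reads by strand by default whereas depth takes reads of both strands, and the part of strand in these counts was not tested.

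Fam189a1 lies on the minus strand at chr7:64756091-65156570 (mm10). EC1 had 43 counts of it in CON and 1 in TM, and EC2 had 31 in CON and 5 in TM. The CON libraries were again above both TM libraries, with a fitted log2 fold change of -3.95 (standard error 0.62, n = 2 per group). In EC1 the ratio was 0.0237, with a counting interval of 0.000585 to 0.139, and in EC2 TM was 9.94-fold lower.

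No exonic ratio could be formed for Fam189a1. Its only listed exonic position had 2 reads, in EC2 CON. EC1 CON listed 5 intronic positions with 1 read each, and EC1 TM listed 3 with 7 reads each, all within a SINE. Taken by gene name this made the scaled intronic median of EC1 higher in TM, at a log2 ratio of 2.82. In EC2 TM the same SINE had 12 reads at each of 2 positions. The other intronic positions by name, at 138 and 159 reads in EC2 CON and at 196 and 32 in EC2 TM, lie in or within 100 bases of Nsmce3. This gene, named Ndnl2 in the count and site tables, sits inside an intron of Fam189a1 on the same strand, and its own listed positions had 79 to 233 reads. Without those positions, EC2 CON listed no intronic position of Fam189a1, so neither mouse had a fall in depth that could be read.

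Lrrc10b has a single exon, on the minus strand at chr19:10455371-10457473 (mm10). EC1 had 11 counts of it in CON and 0 in TM, and EC2 had 12 in CON and 0 in TM. It was the only member with no count in either TM library. With the TM library set at 3 counts it was 3.61-fold lower in EC1 and 6.41-fold lower in EC2. These values leave out the counting error of CON. The counting interval of the ratio, which takes it in, reached from 0 to 0.405 in EC1 and from 0 to 0.224 in EC2. Its 3 listed positions, all in the 3′ UTR, had 11 reads in EC1 CON, and 14 and 18 reads in EC2 TM. Each mouse thus had depth in 1 library only and no ratio could be formed, but EC2 TM had reads over the gene at a count of 0. The scaled medians were 8.27 in EC1 CON and 7.72 in EC2 TM, from different mice.

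Kbtbd11 lies on the plus strand at chr8:15011025-15033333 (mm10). Its counts were 29 in CON and 1 in TM of EC1, and 24 in CON and 3 in TM of EC2. The groups did not overlap, with a fitted log2 fold change of -4.01 (standard error 0.70, n = 2 per group). The ratio of TM to CON was 0.0351 in EC1 and 0.0780 in EC2, with counting intervals of 0.000859 to 0.212 and of 0.0150 to 0.257. Its 4 listed positions, all in the 3′ UTR, had 2 reads in TM of EC1, whose CON library listed none, and 16 and 6 reads in CON and 6 in TM of EC2. In EC2 the scaled median was 7.66 in CON and 2.89 in TM, 2.65-fold lower on 2 positions against 1. Kbtbd11 shares 1772 exonic bases with Gm37844 on the opposite strand, Ephb1 shares 152 with Gm26846, and Lrrc10b and Fam189a1 share none.

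Of 271 positions listed inside the 5 genes, 198 were listed in 1 library alone. None met, in any library, the limits used in the study for an editing site, which ask for 5 reads or more, 3 altered reads or more and an altered fraction from 0.05 to 0.95. No editing rate of these genes could therefore be compared between CON and TM.

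The share of genes called sets the frame for the choice. In the edgeR quasi-likelihood test with Benjamini-Hochberg adjustment at 0.05, 265 genes (3.35% of 7899) were lower in TM and 347 (4.39%) were higher. These numbers depend on the fit, with 584 and 600 once the mouse entered as block, 128 and 234 in DESeq2, and 172 lower without EC2 TM. The last gene inside the choice was Fam189a1, at a fitted log2 fold change of -3.95, and the first outside was Mroh4, with 127, 13, 79 and 7 counts and -3.65. After it came Gadl1 at -3.50, 4930525G20Rik at -3.29, Prkcb, the gene of protein kinase C beta, at -3.27, and Mrps21, of the mitochondrial ribosome, at -3.20. None of these 5 had an exonic depth ratio in both mice. In EC2 alone, Mrps21 had a log2 ratio of -1.36 and 4930525G20Rik one of 0.47, the latter from medians of 1 read in CON and 2 in TM.

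Exonic depth could be compared in both mice for 116 of the 265 genes lower by counts. Of these, 82 (70.7%) were lower in TM in both mice and 37 (31.9%) at least 2-fold lower, beside 37.2% and 2.72% of all 6836 genes. A further 15 (12.9%) were higher in TM in both mice, beside 38.2% of all genes. Counts and depth share their libraries, so these shares describe how often the readouts point the same way and test nothing.

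**Figure D3:**
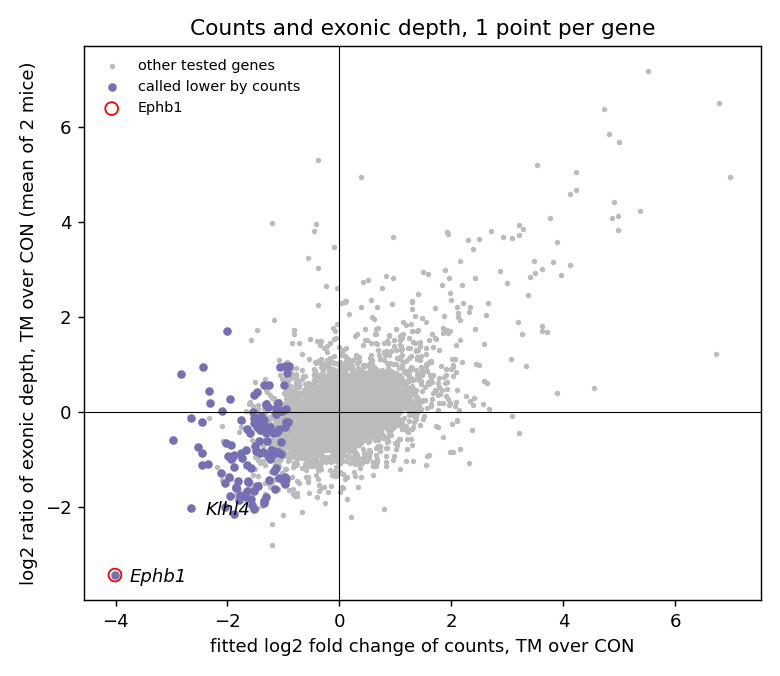
Fitted log2 fold change of counts (horizontal axis) against the log2 ratio of exonic depth averaged over the 2 mice (vertical axis), both TM over CON, for 4808 tested genes with a ratio in both mice. Ephb1 lies at the lower left corner at -4.01 and -3.44, and genes called lower by counts lie both below and above 0 in depth.

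The genes whose profile over the 4 libraries was nearest to the mean of the members were Prkcb, Klhl4 and Grin1os. Their distances were 0.610, 0.647 and 0.666 in centred log2 CPM, and since the members all fall, a near gene has to fall too. Klhl4, another kelch protein, had 155, 24, 128 and 33 counts. Its exonic depth had medians of 1423, 412, 1998 and 592 reads, a log2 ratio of -1.77 in EC1 and -2.29 in EC2. Like Ephb1 it listed fewer intronic positions in TM, 68, 17, 56 and 17 in the 4 libraries. Prkcb, with 41, 3, 28 and 6 counts, and Grin1os, with 25, 2, 25 and 6, had no exonic ratio. Unlike Klhl4, Prkcb listed more intronic positions in TM, 3, 8, 2 and 5, with an intronic log2 ratio of 0.60 in EC1 from medians of 1 and 1.5 reads.

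Among the 8 Eph receptors and ephrins with exonic depth in every library, Ephb1 had the lowest ratio of TM to CON in both mice, which the choice of the gene favours. None of the other receptors (3 of 13 tested) or ephrins (2 of 8 tested) passed the adjusted threshold of edgeR in either direction. Their median log2 fold changes were 0.20 and -0.34, beside 0.0017 over all tested genes. Ephb4 had exonic medians of 1098, 952, 1367 and 1399 reads, or 825, 722, 952 and 675 when scaled, with log2 ratios of -0.19 and -0.50. Its ligand Efnb2 had scaled medians of 252, 244, 311 and 276, with log2 ratios of -0.05 and -0.17. Efna1 was lower, at -0.46 and -1.52, and Efna5 was higher, at 0.71 in both mice. Epha4 had log2 ratios of -0.19 and -0.65, and Efnb1 had -0.30 and -0.87. Apart from Ephb1, 2 of 3 receptors and 3 of 4 ephrins with a ratio in both mice were lower in TM in both, beside 37.2% of all genes, and 0 were at least 2-fold lower in both, beside 2.72%. Exonic depth, which is per base, placed Ephb1 in CON between Epha4, at 11.3 and 17.4, and Efna5, at 46.6 and 52.3.

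**Figure D4:**
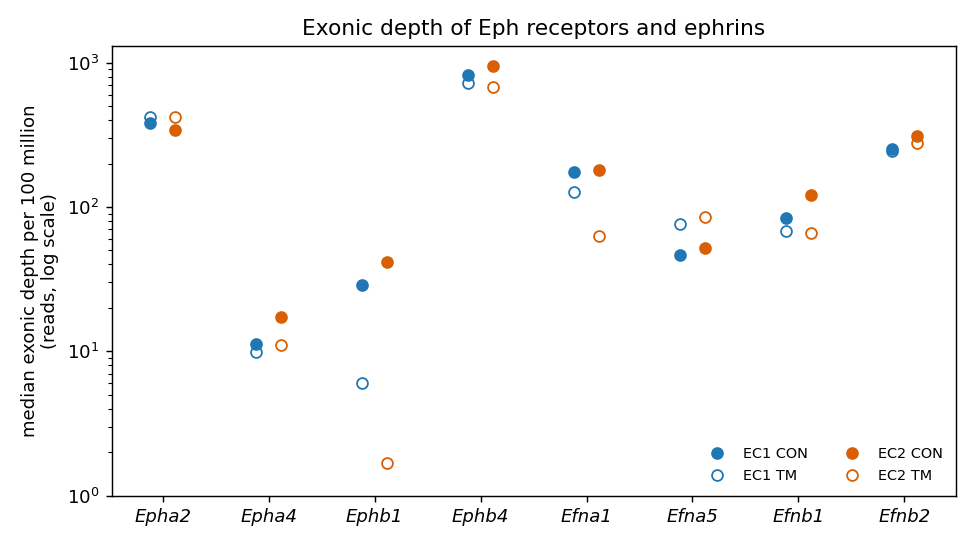
Scaled median exonic depth (log scale) of the 8 Eph receptors and ephrins with at least 3 listed exonic positions in every library, with filled points for CON, open points for TM and a colour per mouse. Ephb1 lies at 28.9 and 41.8 in CON and at 6.07 and 1.69 in TM, and Ephb4 between 675 and 952.

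Few relatives of the other members could be tested, and with 3.35% of all genes called lower and 4.39% higher, 0 calls among so few say little of them. In the cytochrome b561 family 3 of 6 other genes were tested and 0 were called in either direction by edgeR (median log2 fold change -0.15). Cyb561a3, a relative in lysosomes, had 114, 122, 180 and 227 counts, and Frrs1 had exonic log2 ratios of 0.93 and 0.65. Of the BTB-kelch list 3 of 10 others were tested and 0 were called (median -0.39). Cul3, the scaffold of the ligases, had exonic log2 ratios of -0.08 and -0.15, and Kbtbd2 had 0.64 and 0.25. Of the 4 genes of this list with a ratio in both mice 3 were lower in both, the others being Kbtbd4, at -0.04 and -0.79, and Rbx1, a RING subunit of the ligases, at -0.42 and -0.29. With 37.2% of all genes lower in both mice, 4 genes are too few to describe the family. No other FAM189 or LRRC10 gene had enough counts to be tested, with 0 counts for Fam189a2 in every library and 5, 3, 1 and 4 for Lrrc10. Fam189b had 1, 1, 0 and 2 counts but exonic medians of 38 reads in CON and 16 in TM of EC1, a log2 ratio of -1.23. In EC2 its CON median was 45 reads and no ratio could be formed.

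Genes beside the members were read as well. Gm11651 and Tanc2 flank Cyb561. Gm11651, annotated as antisense, had 549, 645, 801 and 1604 counts but no listed exonic or intronic position. Tanc2 had 166, 170, 80 and 199 counts but exonic log2 depth ratios of -1.21 and -1.34. Apba2, next to Fam189a1 on the opposite strand, had 5, 0, 7 and 9 counts and an exonic log2 depth ratio of -2.83 in EC2. In EC1 only an intronic one could be formed, at -1.79 on 12 positions in CON and 3 in TM. Syt7, next to Lrrc10b, had 14, 4, 8 and 12 counts. Arhgef10, upstream of Kbtbd11, had 6, 10, 6 and 17 counts, exonic log2 depth ratios of 0.26 and 0.40, and intronic ones of 0.28 and -0.68. BB014433, the nearest gene on the other side of Kbtbd11, had 6, 0, 3 and 1 counts and no listed position. The reference genes had exonic log2 ratios of -0.09 and -0.40 for Gapdh and of -0.27 and -0.40 for Actb.

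Some endothelial markers were lower in TM as well, by counts and by depth. Of 10 endothelial markers tested 1 was lower and 0 higher by edgeR (median log2 fold change -0.26), beside 3.35% of all genes tested that were lower. This was Cldn5, a tight junction protein, with 47, 23, 57 and 22 counts, a log2 fold change of -1.52 (standard error 0.41) and adjusted p = 0.0176. Of 4 lymphatic endothelial markers tested 2 were lower (median -0.93). They were Prox1, the master factor of lymphatic identity, at -1.46 (standard error 0.37, edgeR adjusted p = 0.0109), and Reln, a secreted matrix protein, at -1.81 (standard error 0.37, edgeR adjusted p = 0.00108). Of the endothelial markers with an exonic depth ratio in both mice, 10 of 11 were lower in TM in both and 1 at least 2-fold (median log2 ratios -0.53 in EC1 and -0.59 in EC2). Of the lymphatic markers it was 5 of 5, with 2 at least 2-fold lower (medians -0.56 and -0.86), beside 37.2% of all genes lower in both and 2.72% at least 2-fold lower. Prox1 had 72, 32, 75 and 35 counts and exonic log2 depth ratios of -1.47 and -1.67. The call of Cldn5 was lost in DESeq2 (adjusted p = 0.171) and without the CON or the TM library of EC2 (edgeR adjusted p = 0.0997 and 0.165), and that of Prox1 likewise (DESeq2 adjusted p = 0.0849, edgeR adjusted p = 0.0545 and 0.115). Lyve1, a lymphatic receptor for hyaluronan, had 187, 215, 192 and 335 counts and log2 depth ratios of -0.05 and -0.47.

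In the lymphatic list Lyve1 and Flt4 had the highest counts and Ccl21a was at 0 in every library. Summed over it, the total was 608, 438, 551 and 439 CPM. Over the endothelial list, with Cdh5 highest and Vwf at 2 counts or fewer, it was 1424, 1195, 1244 and 1291 CPM. Leukocyte markers summed to 49.8, 38.0, 35.6 and 39.8 CPM, with Cd79a or Cd68 at the highest count. Fibroblast markers summed to 34.7, 36.2, 28.3 and 21.0 CPM, with Col3a1 at the highest count. Smooth muscle and pericyte markers summed to 559, 575, 575 and 497 CPM, mostly Tagln, with Rgs5 at 0 in every library. Epithelial and mesothelial markers summed to 13.3, 4.52, 1.82 and 6.83 CPM. These sums do not rank the lists by abundance. In EC1 CON, Tagln had 548 counts at a scaled exonic depth of 116, and Cdh5 had 491 counts at 4730. Enough counts to be tested were found for 2 of 7 leukocyte, 1 of 6 fibroblast and 5 of 7 smooth muscle and pericyte genes. For epithelial and mesothelial genes it was 0 of 7. Of those tested, edgeR called 0. Low counts do not show low depth, as Dcn, not tested at 4, 2, 4 and 6 counts, had exonic medians of 339 reads in EC1 CON and 447 in EC2 CON. Depth and counts of the mesenchymal markers did not all point the same way. Tagln, an actin-binding protein of smooth muscle, had exonic log2 ratios of -0.51 and -1.07, with 548, 534, 553 and 761 counts. In EC2, the one mouse with an exonic ratio for them, Acta2 (smooth muscle actin) was at -2.98, Dcn (decorin) at -1.59 and Col1a1 (a collagen chain) at -1.18. Col1a2, of the same collagen, listed 5, 0, 7 and 1 exonic positions. By counts, however, Acta2 had 33, 43, 33 and 55 (log2 fold change 0.23, not called) and Cnn1, a calponin of smooth muscle, had 9, 18, 15 and 27 (0.54, not called). Exonic positions were more numerous in TM for Cnn1, at 1, 3, 1 and 2, and for Pdgfra, a receptor of fibroblasts, at 0, 2, 1 and 3. The TM libraries also listed more exonic positions in all, with 133875, 143898, 159762 and 200469. Differences of so few positions are therefore not read as a direction. In bulk RNA, fewer cells of a type and less RNA per cell cannot be told apart, and the part of the lymphatic, mesenchymal or other cells in the falls of the 5 genes was not tested.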

How the data were processed

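RNA-seq of 2 CON and 2 TM cultures was used. The authors trimmed reads, aligned them to mm10 and deposited raw HTSeq counts per gene without normalization. The submitters' processing notes name Trimmomatic 0.38, STAR 2.6.1a and HTSeq 0.11.2, and the annotation is not given in the sources used here. The authors also deposited counts of reference and altered reads at positions called with BCFtools, where genes of the plus strand show G for A and genes of the minus strand C for T. Columns of that table were given to libraries by name (a suffix marks TM), and their reads were equal to those that a supplementary table gives for each named library. Summary rows of the count tables were left out of gene counts.

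Counts were tested with edgeR 4.0.16 in R 4.3.3 (filterByExpr, TMM, quasi-likelihood test, condition only, Benjamini-Hochberg adjustment). Depth was the sum of reference and altered reads at a listed position, exonic depth its median over exon and UTR positions (at least 3 in each library), per 100000000 of the table total. The measure was tested on simulated data. Alternatives were DESeq2 1.42.0, the mouse as block, other filters, sites, summaries and scalings. Positions in genes came from GENCODE vM21, promoters from RefSeq (GRCm38.p6), which held 3 of the 5 members. Python 3.11.15 was used.

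The members and lists were chosen with earlier results of these data known. Genes were named as members, relatives from fixed lists, the next 5 in order of fall, the 3 nearest in profile, neighbours, markers, Adar, Gapdh and Actb. Libraries of a mouse pair by design, and deviations from the group means correlated with r = 0.163 over 7899 genes. With 2 mice, p-values rest on 2 libraries per group.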

Additional observations from a re-analysis of the deposited data

How the results depend on the processing

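The number of genes lower and higher in TM, 265 and 347, was 128 and 234 with DESeq2, 584 and 600 in edgeR once mouse entered as replicate block, and 176 and 225 in DESeq2 under that replicate block. Leaving out each library in turn gave 172 to 273 lower and 264 to 301 higher, the 172 without EC2 TM. With at least 10 counts in every library none of the 5 was tested. Calls of the members are not given, since their counts chose them. Over the fits that left out a library and tested the gene, the fitted log2 fold change ran from -4.38 to -3.44 for Cyb561, from -5.05 to -3.50 for Fam189a1, the first without EC2 TM, from -6.79 to -6.54 for Lrrc10b, a value set by the prior count because both TM libraries are at 0, from -4.57 to -3.73 for Kbtbd11 and from -7.13 to -2.80 for Ephb1, the first without EC1 TM, where TM is at 0, and the last without EC2 TM.

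Exonic depth of Ephb1 was lower in both mice under every alternative that gave a ratio, but the number of listed exonic positions per listed position of the library gave smaller log2 ratios of -0.52 in EC1 and -1.50 in EC2, in place of -2.25 and -4.63. With a minimum of 10 positions, or of 3 positions listed in both libraries of a mouse, no member had an exonic ratio in both mice. Without scaling, 0 members were lower in both mice in intronic depth, because the EC2 medians of Ephb1 were equal, and the share of genes lower in both mice was 16.9% for exonic and 15.003% for intronic depth, in place of 37.2% and 33.1%. Summed intronic depth of Ephb1 was 13.1-fold lower in EC1 and 9.90-fold lower in EC2, a ratio of sums over 152 positions against 24 and 89 against 18 that counts unlisted depth as 0. The intronic log2 ratio of Fam189a1 in EC1 was -0.52 in place of 2.82 when positions were counted per listed position of the library, which the construction of that measure brings about, as it ignores depth. Of the endothelial markers, 0 were lower with DESeq2 and 2 with the replicate block, and of the lymphatic markers 1 was lower with DESeq2. Which positions are listed depends on an altered read being present, and 76.0% to 76.6% of listed positions had 1 altered read, so that depth where no such read fell is unknown.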
